A study of Mus musculus with 14 samples.

Results

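Transcripts of 9 genes that mark lymphocytes and natural killer (NK) cells were followed in the lung tumors that arise in mice with a c-Myc transgene. They were listed by name as Cd79a and Cd79b of the B cell receptor, Cd2, Cd3g, Lck and Thy1 of T cells, Nkg7 and Gzma of cytotoxic cells, and Jchain of antibody-secreting cells. A probe set, the group of short oligonucleotides that reads 1 transcript on the array, was taken as a member if its only gene symbol was 1 of these 9. This gave 7 probe sets for 7 genes, out of 12422 probe sets and 8251 gene symbols on the array. No probe set carried Lck or Nkg7 as its only symbol here, and both are without a value.

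The study profiled RNA on 14 Affymetrix Murine Genome U74v2 arrays, 1 animal each, all of strain CD2F1-(DBA/2xBalb/C). The tumors came from hemizygous SPC/c-Myc mice aged 9 to 13 months, in which the surfactant protein C promoter drives c-Myc in the alveolar epithelium. There were 3 pools of small tumors (about 1 mm, 3 to 4 tumors of 1 animal in each pool), 4 middle tumors (about 4 to 5 mm) and 3 large tumors (at least 10 mm). Lung of 4 non-transgenic mice of about the same age was the control, shared by all 3 sizes, so the comparisons by size are not independent of each other. The tumors were cut free of the surrounding lung, whereas control lung is whole tissue with its vessels and blood. In such bulk RNA, fewer lymphocytes and less RNA per lymphocyte cannot be told apart.

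Values are MAS 5 signals, a linear brightness per probe set that the authors scaled to a target of 250 on every array. A signal of 70 is the limit for expression used here. For fold changes, signals below 70 were set to 70 and put on the log2 scale, which understates the change of a gene that falls below 70. Genes at 70 or more on at least 3 arrays were tested in limma with the 4 groups in 1 model. A gene is said to have passed this filter only through control lung where no tumor reached 70. Genes with fewer than 3 tumors at 70 needed control lung as well. A gene was called at a Benjamini-Hochberg adjusted p under 0.05 over all 6914 probe sets tested. On the array of middle tumor 3, 25.02% of the values were listed at 0 and were treated as missing, Cd79b among them. With these values counted, the mean of that array, trimmed by 2% at each end, was 196, against 250 on every other array. Control lung 4 had the lowest signal of the 4 control lungs for several leukocyte genes: Ptprc, the pan-leukocyte phosphatase CD45, was at 105 there and at 285 to 467 in the others. Counts and calls without either array are given where they change by much.

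B cells detect antigen with a membrane antibody that signals through a pair of chains, CD79A and CD79B. T cells use the CD3 complex, to which CD3G belongs, together with the kinase LCK and with the surface proteins CD2 and THY1. NK cells and cytotoxic T cells kill with granule proteins such as granzyme A, the product of Gzma, and carry NKG7 in the granule membrane. Plasma cells, the last stage of the B line, lose most of the B cell receptor, secrete antibody and make the J chain, which joins IgM and IgA into polymers. The normal lung holds all of these cells in its vessels, in its interstitium and along the airways.

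The promoters of the 3 tested members with the largest log2 fold change on floored signals are shown first, from 250 bases before to 50 after the start of transcription (RefSeq, GRCm38.p6, 5′ to 3′). Promoters were found for 6 of the 9 members. They were searched for CACGTG, the canonical E-box bound by Myc and Max, for the ETS motif AGGAAGT and for the octamer ATGCAAAT of B cell genes, each on both strands, and for TATAA on the strand of the gene. Cd79a lies at chr7:24897247-24897546 on the plus strand, Jchain at chr5:88527848-88528147 on the minus strand and Gzma at chr13:113100932-113101231 on the minus strand. Capitals mark AGGAAGT in Cd79a and TATAA in Gzma.
Cd79a: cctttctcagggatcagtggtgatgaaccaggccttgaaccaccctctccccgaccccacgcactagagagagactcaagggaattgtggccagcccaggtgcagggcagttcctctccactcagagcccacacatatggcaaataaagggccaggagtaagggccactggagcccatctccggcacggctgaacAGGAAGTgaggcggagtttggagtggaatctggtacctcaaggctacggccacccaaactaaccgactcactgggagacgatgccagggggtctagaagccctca
Jchain: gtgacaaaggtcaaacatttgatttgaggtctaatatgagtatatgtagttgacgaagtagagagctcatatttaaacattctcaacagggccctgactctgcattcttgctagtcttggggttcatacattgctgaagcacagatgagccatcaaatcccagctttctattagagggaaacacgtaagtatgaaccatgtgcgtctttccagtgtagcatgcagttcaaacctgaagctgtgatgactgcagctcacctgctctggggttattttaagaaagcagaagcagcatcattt
Gzma: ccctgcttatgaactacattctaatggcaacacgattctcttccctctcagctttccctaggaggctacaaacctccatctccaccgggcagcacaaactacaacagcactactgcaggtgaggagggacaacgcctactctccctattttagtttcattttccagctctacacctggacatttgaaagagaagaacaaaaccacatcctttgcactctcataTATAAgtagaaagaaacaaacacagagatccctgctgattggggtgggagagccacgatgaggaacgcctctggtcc
None of the windows of the 6 genes held CACGTG, which 7.15% of 32851 mouse promoters of this length hold, and none held ATGCAAAT (1.74% of promoters). AGGAAGT began 55 bases before the start of Cd79a and is found in 9.35% of promoters, and it also stands in both windows of Lck. TATAA began 27 bases before the start of Gzma and is found in 17.5% of promoters. These matches describe letters, and no binding was measured on these arrays.

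Of the 7 members with a value, 5 passed the filter and were tested, and 4 of them were called lower in all tumors than in control lung (Cd79a, Gzma, Jchain and Thy1). No member was called higher, and Cd79b was not called. Of all probe sets tested, 21% were called lower and 23.6% higher in this comparison. Cd2 and Cd3g lay below the filter, and Gzma passed it only through its control lungs. The median log2 fold change of the 5 was -0.80, against 0.04 over all probe sets tested. This median is the value of Gzma, whose tumors all lay at the floor, so the floor sets its size. Without control lung 4 all 5 were called lower in all tumors, and without middle tumor 3 it was 3, with Thy1 no longer called. By size, 3 of 5 members were called lower in small pools, 3 in middle tumors and 3 in large tumors, where 16.7%, 16.4% and 18.3% of all probe sets tested were called lower in the small, middle and large comparison.

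**Figure D1:**
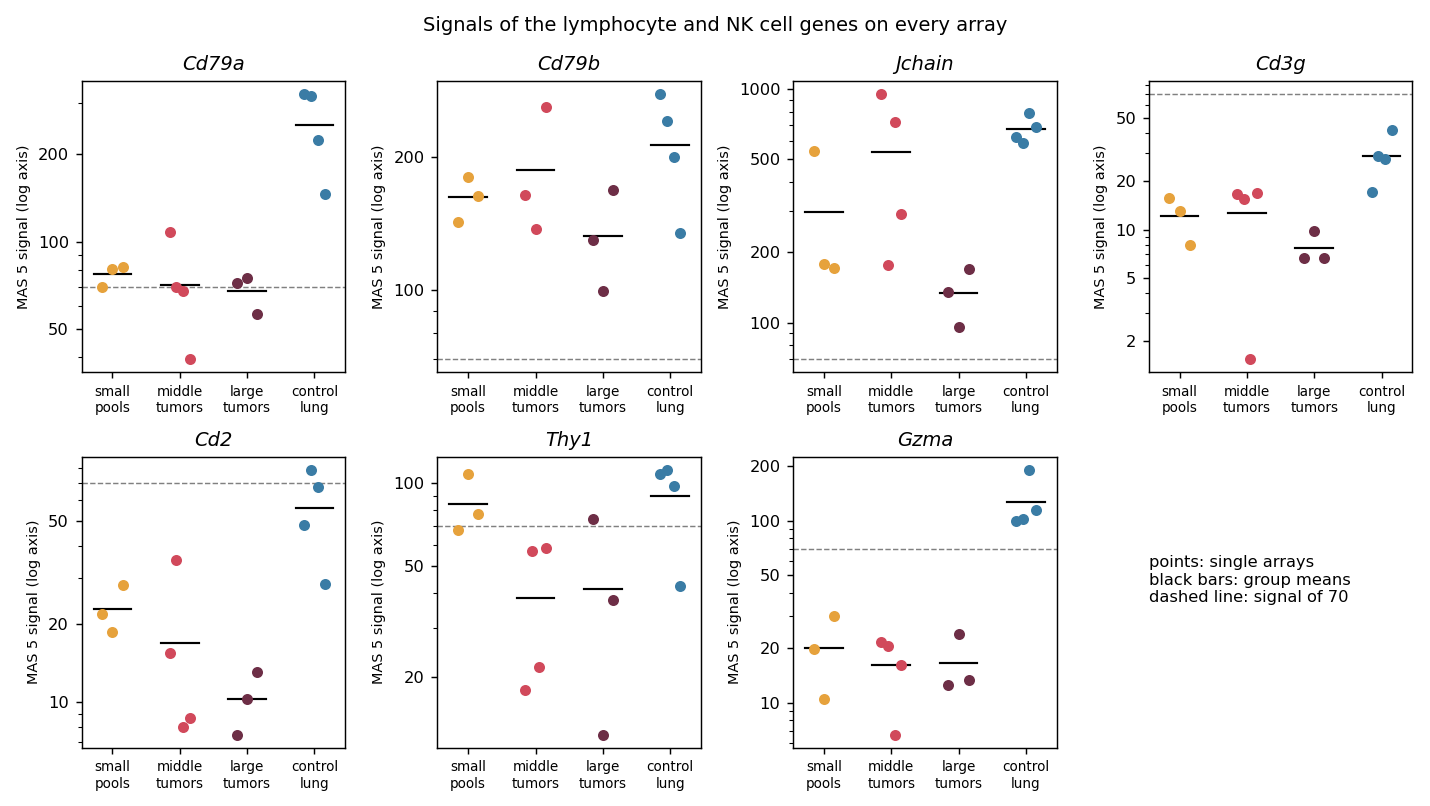
MAS 5 signal (log axis) of the 7 genes with a value on each array, for small pools, middle tumors, large tumors and control lung. Points are single arrays, black bars are group means and the dashed line is a signal of 70; for Cd79a, Cd3g and Gzma every tumor lies below every control lung.

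Cd79a, the CD79A chain of the B cell receptor, was lower in every tumor than in any control lung. Its signals were 69.6, 80.7 and 81.8 in the small pools, 108, 69.9, 67.7 and 39.5 in the middle tumors and 71.8, 74.7 and 56.3 in the large tumors, against 322, 317, 223 and 145 in control lung. The highest tumor, middle tumor 1 at 108, stayed below the lowest control lung at 145, and 5 of the 10 tumors were at 70 or more. Over all probe sets tested, 12.7% had every tumor below every control lung. The mean was 72.0 ± 17.6 in tumors (SD, n = 10) and 252 ± 84.2 in control lung (SD, n = 4), a 3.50-fold lower signal. The log2 fold change was -1.66 (standard error 0.19, adjusted p = 8.5e-06 in limma). It was -1.63 in small pools, -1.62 in middle tumors and -1.73 in large tumors, each called. The differences between sizes were 0.11 or less on the log2 scale. The floor can narrow them, as tumors such as middle tumor 4 (39.5) and large tumor 3 (56.3) were set to 70. Cd79a was called under all alternatives run, and without control lung 4 its log2 fold change was -1.90.

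Cd79b, the partner chain in the same receptor, did not follow Cd79a. Its signals were 143, 181 and 163 in small pools, 164, 138 and 259.9 in middle tumors 1, 2 and 4, and 130.04, 99.4 and 169 in large tumors, against 278, 241, 200.2 and 135 in control lung. Of 9 tumors with a value, 7 lay within the range of the control lungs and 2 below it. The log2 fold change of all tumors was -0.40 (standard error 0.23, adjusted p = 0.165), and no size was called. Without control lung 4, the lowest of the controls, it was -0.61 and was called (adjusted p = 0.0418). The difference between both chains was also computed, a comparison chosen after the values were seen. The log2 signal of Cd79a minus that of Cd79b averaged -1.02 ± 0.42 in 9 tumors and 0.22 ± 0.13 in 4 control lungs (SD), a difference of -1.24. All 9 tumors lay below every control lung in this measure, with p = 0.0028 in a two-sided exact permutation test over arrays. With such full separation no other labelling of the arrays is more extreme in this direction, so the test stood at its limit. The same signals had prompted the comparison, so a low p was to be had in advance. It describes these arrays and is no independent evidence that the chains differ.

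Jchain, the joining chain of IgM and IgA, differed most from tumor to tumor. Its signals were 541, 178 and 171 in the small pools, 950.0, 176, 724 and 291 in the middle tumors and 135, 95.6 and 170.4 in the large tumors, against 624, 588, 789 and 689.9 in control lung. Small pool 1 was close to the control lungs, middle tumor 3 was within their range and middle tumor 1 was above all of them. The other 7 tumors were at 291 or less. The fall over all tumors was -1.46 on the log2 scale, with a standard error of 0.40 and an adjusted p of 0.00807. By size it was -1.39 in small pools (adjusted p = 0.0463), -0.63 in middle tumors (adjusted p = 0.353) and -2.36 in large tumors (adjusted p = 0.00238).

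The call of Jchain in small pools depended on single arrays. It was lost without any single control lung, without small pool 2 or 3 and without any single large tumor, with adjusted p between 0.0503 and 0.181. Without small pool 1 the log2 fold change was -1.94 (adjusted p = 0.0130). In middle tumors it was -1.003 without middle tumor 1 (adjusted p = 0.1002), -0.87 without middle tumor 3 (adjusted p = 0.216), -0.43 without middle tumor 4 (adjusted p = 0.580) and -0.19 without middle tumor 2 (adjusted p = 0.798). Middle tumors exceeded large tumors by 1.74 on the log2 scale (standard error 0.51), but the adjusted p of this difference was 0.334.

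**Figure D2:**
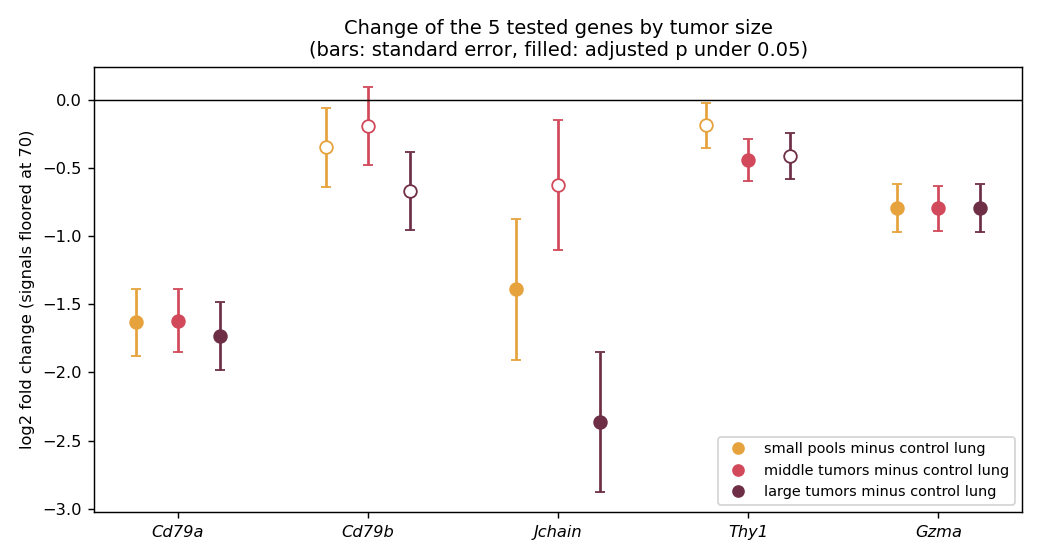
log2 fold change (signals floored at 70) of the 5 tested genes in small pools, middle tumors and large tumors against control lung, with standard errors as bars; filled points have an adjusted p under 0.05. Cd79a sits at nearly 1 level in the 3 sizes, with only 5 of 10 tumors at 70 or more. Gzma sits at exactly 1 level since all its tumors are at the floor, while Jchain spans -0.63 in middle tumors to -2.36 in large tumors.

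Cd3g and Cd2 stayed near or below the limit for expression. Cd3g, the gamma chain of CD3, had 15.7, 13.1 and 7.95 in small pools, 16.6, 15.5, 1.56 and 17.0 in middle tumors and 6.64, 9.83 and 6.67 in large tumors, against 17.2, 28.8, 27.4 and 41.9 in control lung. Every tumor was below every control lung, by a margin of 17.0 against 17.2 at the closest, and every array was below 70. Cd2, an adhesion receptor of T and NK cells, had 21.8, 18.6 and 28.3 in small pools, 15.4, 35.2, 7.98 and 8.69 in middle tumors and 7.49, 10.3 and 13.0 in large tumors, against 48.2, 78.4, 67.5 and 28.6 in control lung. All tumors but middle tumor 2 were below the lowest control lung, and 1 control lung reached 70. Of all 12422 probe sets, 9.41% had every tumor below every control lung. No fold is given for either gene, since nearly all signals are below the limit for expression. In a fit with neither floor nor filter, added after the data had been seen, both were called lower in all tumors (adjusted p = 0.0023 for Cd2 and 0.0383 for Cd3g), as were 16.8% of the 9840 probe sets in that fit. With the floor kept and no filter neither was called (adjusted p = 0.304 for Cd2 and 1 for Cd3g).

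Thy1, a surface glycoprotein of mouse T cells that some fibroblasts and neurons carry as well, changed least among the called members. Its signals were 68.0, 108 and 77.3 in small pools, 17.9, 56.7, 21.6 and 58.3 in middle tumors and 74.4, 12.3 and 37.8 in large tumors, against 108, 112, 98.0 and 42.4 in control lung. Small pools lay within the control range, and no middle tumor reached 70. The log2 fold change was -0.35 in all tumors (standard error 0.13, adjusted p = 0.0404), -0.19 in small pools (adjusted p = 0.416), -0.45 in middle tumors (adjusted p = 0.0406) and -0.42 in large tumors (adjusted p = 0.0646). The call in all tumors was lost under 17 of 26 alternatives, among them leaving out control lung 1, 2 or 3 (adjusted p = 0.134, 0.145 and 0.0896). Without control lung 4, large tumors were called lower as well (log2 fold change -0.56, adjusted p = 0.00678).

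Gzma, granzyme A of NK cells and cytotoxic T cells, was far lower in every tumor. Its signals were 19.6, 10.5 and 30.1 in small pools, 21.6, 20.5, 6.70 and 16.0 in middle tumors and 12.6, 23.9 and 13.3 in large tumors, against 99.2, 102, 189.5 and 115 in control lung. All 10 tumors were below 70 and all 4 control lungs above it. With the tumors set to 70, Gzma was at least 1.74-fold lower in tumors than in control lung, on means of log2 signals, and the bound is the same in each size. It was called in all tumors and in each size, but it had passed the filter only through control lung, and tumors have no spread after the floor. The filter and the floor thus fixed the direction of these calls, and the signals are the description.

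Between the sizes, 0 of the 5 tested members were called in any of the 3 comparisons in limma, where 0.0289% of all probe sets tested were called between small pools and large tumors and 0% in either comparison with middle tumors. At an unadjusted p under 0.05 there was 1 member, Jchain between middle and large tumors. The unpaired test of the methods and the fit with array weights called 0 members between sizes too.

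Jchain moved with antibody genes. Over all 14 arrays and 5125 genes, the 3 genes with the smallest root mean square difference from Jchain in centred log2 signal were Igkv9-120 (0.26), Igha (0.30) and Ighm on the first of 3 probe sets described here (0.31), against a median of 1.14 over genes. Igha, the constant region of IgA, had 2993, 885 and 563 in small pools, 3901, 819, 3087 and 1370.4 in middle tumors and 574, 404 and 774 in large tumors, against 2257, 2309.5, 1828 and 2322 in control lung. Small pool 1 and middle tumors 1 and 3 thus exceeded every control lung, and the other 7 tumors were below every one of them. The log2 fold change of Igha in all tumors was -1.01 (adjusted p = 0.0629), which was not called. This Ighm probe set, for the heavy chain of IgM, had 1721, 368 and 284 in small pools, 2459, 455, 2043 and 501 in middle tumors and 301, 241 and 543 in large tumors, against 1764, 1917, 1558 and 1663 in control lung. The same 3 tumors were within or above the control range.

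The platform annotation gives Ighm on further probe sets that behaved otherwise. On the second probe set the signals were 35.9, 46.6 and 46.6 in small pools, 62.6, 39.5, 33.3 and 27.6 in middle tumors and 54.5, 39.0 and 17.6 in large tumors, against 358, 357, 304 and 146 in control lung. On the third probe set tumors ranged from 171 to 602, against 1266 to 1535 in control lung. On both, every tumor was below every control lung, also the 3 tumors in which Jchain and the first probe set stayed high. The third fell in middle tumors (log2 fold change -2.02, adjusted p = 4.1e-04), and the second passed the filter only through control lung. Antibody genes form a large family of near-identical copies, and such probe sets can read several of them, so the gene behind each of these probe sets is uncertain.

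**Figure D3:**
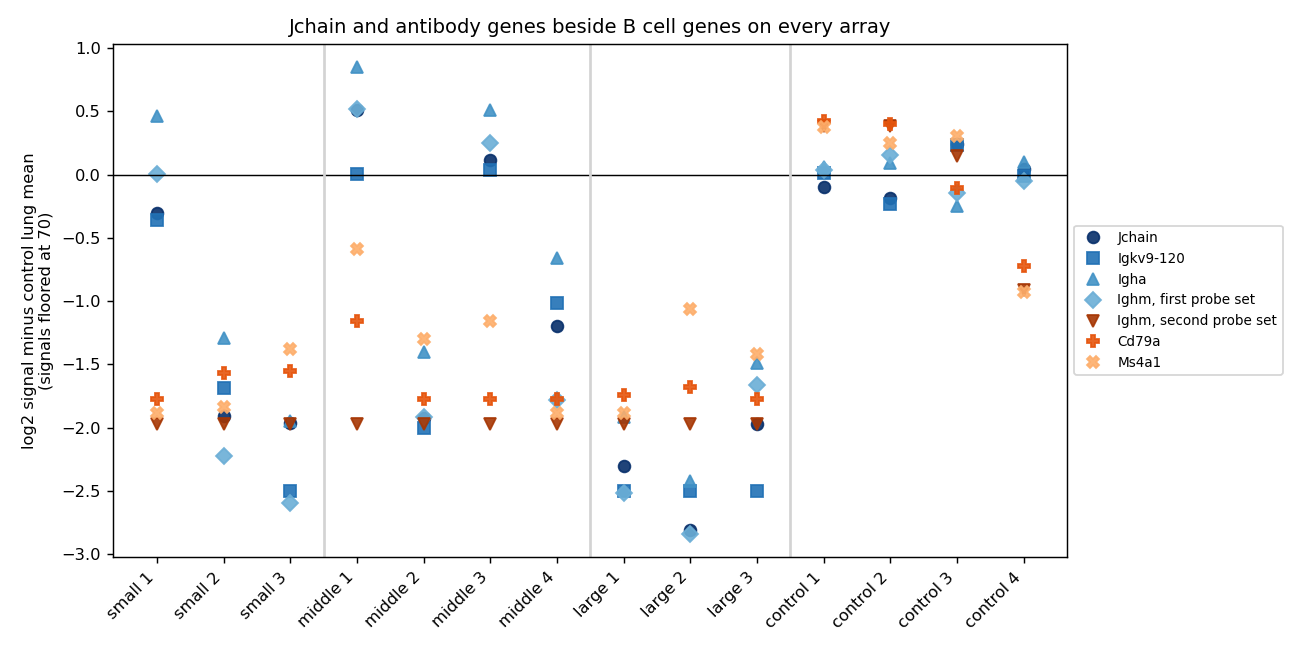
log2 signal (floored at 70) minus the mean of the 4 control lungs for Jchain, Igkv9-120, Igha and the first Ighm probe set (blue) and for the second Ighm probe set, Cd79a and Ms4a1 (orange and brown), on each array by group. In small pool 1 and middle tumors 1 and 3 the blue points lie near or above 0 while the orange and brown points lie below it. The second Ighm probe set is below 70 in every tumor, so the floor holds its tumor points at 1 fixed level.

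Of 59 probe sets for 25 antibody genes, 40 passed the filter, and in the fit over all 8127 probe sets past the filter 23 of them were lower in all tumors and 0 higher, where 20.8% of those probe sets were called lower. With 1 probe set per gene, 17 of 21 were lower in all tumors, against 21% of all probe sets tested. Igkv6-23 (-1.94), Igkv4-70 (-1.74) and Igkv1-133 (-1.66) led, and Ighv14-2, 1 of the 17, had passed the filter only through control lung. The count was 14 without control lung 4 and 18 without middle tumor 3, where 1376 of 6829 and 1470 of 6899 probe sets were called lower. Over the 40 probe sets, lower calls numbered 18 in small pools, 9 in middle tumors and 23 in large tumors. Over all 8127 they numbered 1323, 1316 and 1444. In single tumors, the number of these probe sets not below the lowest control lung was 14 of 40 in small pool 1, 27 of 40 in middle tumor 1 and 15 of 24 with a value in middle tumor 3. In the other 7 tumors it was 3 or 4 of 40. The same count was not made over all probe sets, so these numbers only compare the tumors with each other. The median log2 ratio to the control mean over these probe sets was -0.36 in small pool 1, 0.00 in middle tumor 1 and -0.20 in middle tumor 3, and between -1.28 and -1.08 in the other tumors.

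Other genes of the B line were read beside Cd79a and Jchain. Of 15 B cell genes tested, 9 fell in all tumors, 0 rose and the median log2 fold change was -0.40, where 21% of all probe sets tested were called lower. Without control lung 4 the count of lower B cell genes was 12, and without middle tumor 3 it was 9. Of all probe sets, 1376 of 6829 and 1470 of 6899 were called lower in those fits. Of the 9, Cd83, H2-Ob and Pou2af1 had passed the filter only through control lung. Ms4a1, the B cell surface protein CD20, had 66.9, 72.3 and 99.2 in small pools, 171, 105, 116 and 55.7 in middle tumors and 63.7, 124 and 96.6 in large tumors, against 335, 306, 318 and 135 in control lung. Every tumor but middle tumor 1 was below the lowest control lung, and the log2 fold change was -1.46 (adjusted p = 4.8e-04). Cd37, a tetraspanin of mature B cells, fell by 1.29 on the log2 scale (adjusted p = 1.7e-05). Blnk, the adaptor that links the receptor to its kinases, had -0.79 on 1 probe set (adjusted p = 3.4e-04) and -0.11 on another (adjusted p = 0.493), and Btk, a kinase downstream of the receptor, had -0.65 (adjusted p = 8.2e-04). Pax5, the factor that holds B cell identity, was not called (-0.30, adjusted p = 0.247), and neither was Cd22 (-0.17, adjusted p = 0.108).

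Of 5 plasma cell genes tested, 2 were called lower, Jchain and Prdm1, against 21% of all probe sets tested, and the median was 0.05. Without control lung 1, 2 or 3 the count was 1 of 4 tested. Prdm1, the repressor BLIMP1 that drives the plasma cell fate, was below 70 in every tumor (22.4 to 42.1), against 104, 95.6, 153 and 51.3 in control lung, and had passed the filter only through control lung. Among the tumors it was highest in small pool 1 (42.1) and middle tumor 1 (41.5), and middle tumor 3 had 29.3. Xbp1, a factor of the secretory pathway that epithelium uses too, was not called (0.05, adjusted p = 0.747).

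The T cell list gave 24 genes with a probe set, of which 11 were below 70 on all arrays and 10 were tested. Of these 7 fell, 0 rose and the median log2 fold change was -0.43, where 21% of all probe sets tested were called lower. Lcp2, 1 of the 7, had passed the filter only through control lung. Cd7, also among the 7, reached 70 in only 2 tumors and needed control lung to pass as well. Only 4 of 9 tested were called without control lung 1 and 3 of 8 without control lung 2. Of all probe sets, 1231 of 6841 and 1244 of 6863 were called lower in those fits. Zap70, the kinase of the T cell receptor, had 99.0, 46.9 and 19.96 in small pools, 536, 86.8, 117 and 14.4 in middle tumors and 27.6, 81.5 and 109 in large tumors, against 294, 279, 248 and 282 in control lung. It fell by 1.49 on the log2 scale (adjusted p = 0.0060), but middle tumor 1 stood above every control lung. Another Zap70 probe set was not called (log2 fold change -0.06, adjusted p = 0.721), with means of 55.8 in tumors and 69.7 in control lung. Cd7, a surface protein of T and NK cells, was high in middle tumor 1 too, with 264 there and 14.8 to 108 in the other tumors, against 193, 184, 110.2 and 164 in control lung (log2 fold change -0.96, adjusted p = 0.0185). Lef1, a transcription factor of T cells that is not confined to them, fell by 0.71 (adjusted p = 0.0139). Cd3e, another CD3 chain, had -0.34 (adjusted p = 0.0524), Cd4 -0.36 (adjusted p = 0.308) and Lat, the adaptor downstream of ZAP70, -0.01 (adjusted p = 0.967).

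Of 23 NK and cytotoxic genes with a probe set, 16 were below 70 on all arrays and 4 were tested. Of the 4, 3 were called lower, against 21% of all probe sets tested. Among the called genes, Ccl5 and Gzma had passed the filter only through control lung, and so had Gzmb, which was not called. Ccl5, a chemokine released by cytotoxic T and NK cells, was at 5.85 to 31.1 in the tumors, against 296, 401, 233 and 164 in control lung. Like Gzma it was below 70 in all 10 tumors and above 70 in all 4 control lungs. Klrc1, the NK receptor NKG2A, fell by 0.35 (adjusted p = 0.0369), and Gzmb, granzyme B, had -0.24 (adjusted p = 0.0546).

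Of 18 genes of antigen receptor signalling, 13 fell and 0 rose, with a median log2 fold change of -0.53. Over all probe sets tested, 21% were called lower, the share to set beside each list in this paragraph. Lcp2, 1 of the 13, had passed the filter only through control lung. In this list 7 were called without control lung 1 or without control lung 2, where 1231 of 6841 and 1244 of 6863 probe sets were called lower. Fyn, a Src-family kinase of T cells that is made in other tissues too, had 55.6 to 103 in the tumors, against 364, 393, 467 and 185 in control lung (log2 fold change -2.002, adjusted p = 3.5e-06). Syk, the kinase of the B cell receptor, fell by 0.74 (adjusted p = 0.0278), whereas Plcg1, a phospholipase of many cell types, had 0.01 (adjusted p = 0.965). Of 20 pan-leukocyte genes, 16 fell and 0 rose, with a median of -0.90, and Cd48, 1 of the 16, had passed the filter only through control lung. Ptprc had a log2 fold change of -1.72 (adjusted p = 1.5e-04) and Lsp1, an actin-binding protein of leukocytes, of -2.06 (adjusted p = 7.1e-06). Of 8 genes of lymphoid homing tested, 5 fell. Among them were Ltb, the lymphotoxin subunit that organises lymphoid tissue (-2.005, adjusted p = 2.3e-05), and Cxcr4, a chemokine receptor (-1.85, adjusted p = 4.0e-07). Cxcr4 reached 70 in only 2 tumors and needed control lung to pass the filter. Icam2, an adhesion molecule of endothelium and lymphocytes, fell too (-3.95, adjusted p = 1.6e-10).

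**Figure D4:**
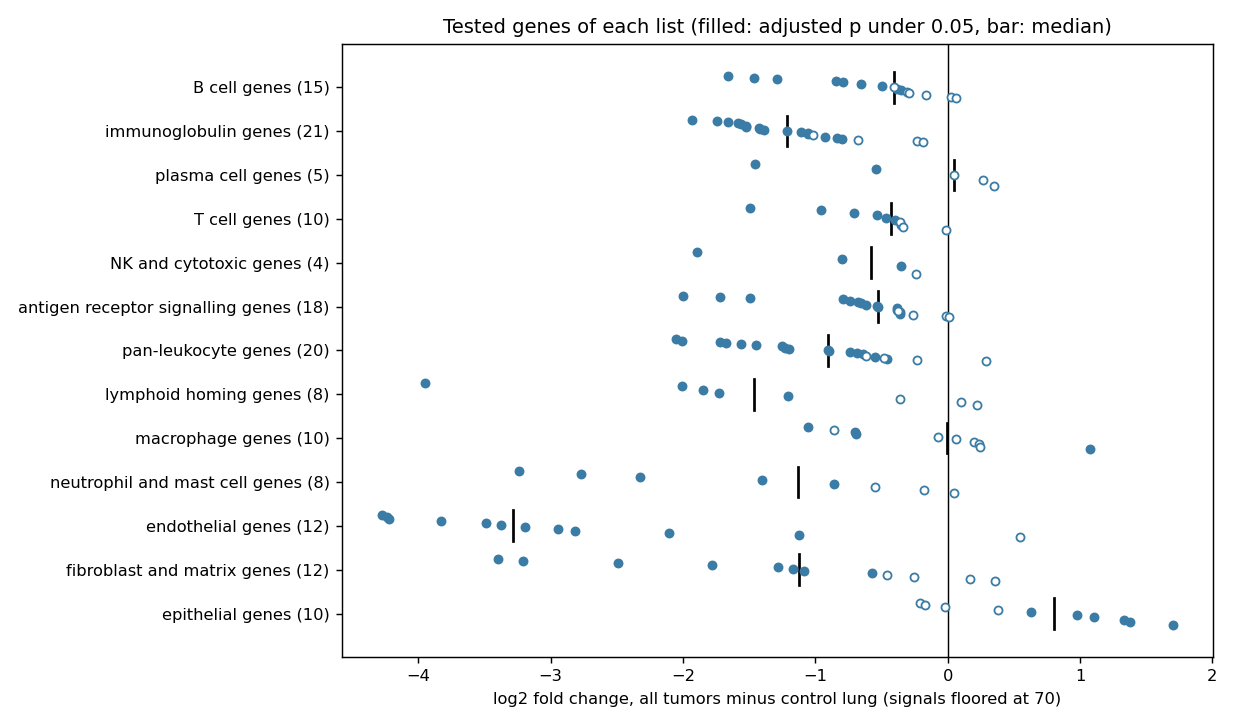
log2 fold change of all tumors against control lung (signals floored at 70) for the tested genes of each list, whose number stands in brackets. Points are genes, filled where the adjusted p is under 0.05, and bars are medians. The medians of the B cell, T cell and NK lists lie between -0.58 and -0.40. That of the plasma cell genes is at 0.05, that of the antibody genes at -1.21 and that of the endothelial genes at -3.28. Of the 4 NK genes, Ccl5, Gzma and Gzmb passed the filter only through control lung and are at the floor in every tumor, so the floor shapes that median.

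Markers of other cells moved in the same samples, where 21% of all probe sets tested were called lower and 23.6% higher. Of 12 endothelial genes, 11 fell, led by Thbd (-4.28), Cldn5 (-4.24) and Ramp2 (-4.22) and with a median log2 fold change of -3.28. Pecam1, the remaining gene, went the other way and was not called (0.54, adjusted p = 0.0636 in limma). Calcrl, 1 of the 11, had passed the filter only through control lung. The summed signal of the endothelial list, over genes with a value on every array, was 1899 to 3499 in tumors, against 21021 to 26635 in control lung. Of 12 fibroblast and matrix genes 8 fell, led by Inmt (-3.40), Mfap4 (-3.21) and Pdgfra (-2.49) and with a median of -1.13, and their sum was 2961 to 6800.0 in tumors, against 13206 to 15815 in control lung. Of 10 epithelial genes 6 rose and 0 fell, led by Krt18 (1.70), Epcam (1.38) and Cldn3 (1.33) and with a median of 0.80. Of 10 macrophage genes 3 fell, Csf1r (-1.06), Mrc1 (-0.70) and Mpeg1 (-0.69), and 1 rose, Cd14 (1.08), with a median of 0.00. The 30% called lower lies near the share over all probe sets tested. The sum of the macrophage list was 6557 to 11393 in tumors, against 8703 to 10849 in control lung. The part of these shifts in the lower lymphocyte signals was not tested.

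Of 8 neutrophil and mast cell genes 5 fell, against 21% of all probe sets tested, with a median of -1.13. Only 1 was called without control lung 1 or 2 and 3 without control lung 4, small pool 2 or small pool 3. Kit, the receptor that mast cells depend on, had a log2 fold change of -3.24, S100a8 one of -2.77 and S100a9 one of -2.33. S100a8 and S100a9 each reached 70 in only 2 tumors and needed control lung to pass the filter. Kit was the only mast cell gene tested, as Cpa3, Mcpt4, Cma1, Ms4a2 and Fcer1a did not pass the filter. Its fall thus gives no reading of mast cells. S100a8, a protein of neutrophils, was at 1740.3 in small pool 1 and at 40.1 to 268 in the other tumors, against 2061, 2271, 310.0 and 234 in control lung. Small pool 1 was thus high in S100a8 as well as in Jchain. Middle tumor 3, also high in Jchain, had the next highest S100a8 of the tumors (268), while middle tumor 1, with the highest Jchain, had 55.9. The sum of the B cell list was 571 to 1361 in tumors, against 1499.6 to 2149 in control lung. That of the NK and cytotoxic list was 97.6 to 194 in tumors, against 459.9 to 671 in control lung. The NK sum holds 4 genes, of which Ccl5, Gzma and Gzmb had passed the filter only through control lung. The filter thus favoured such a gap, and the sums are a description. The sum of the T cell list was 588 to 1888 in tumors, against 1619 to 2134 in control lung, where middle tumor 1 alone overlapped.

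Cd79a had other company than Jchain. The 3 genes with the smallest root mean square difference from it over the 14 arrays were Hoxb5, a homeobox factor of lung mesenchyme (0.15), Fgl2, a fibrinogen-like protein of leukocytes and endothelium (0.17), and Ankrd33b (0.18), against a median of 0.87 over genes. Hoxb5 was at 19.5 to 92.0 in tumors, against 221, 278, 225 and 151 in control lung, and Fgl2 at 22.8 to 69.4 in tumors, against 307, 274, 199 and 160.3 in control lung. In all of these genes the tumors sat near or below 70, where the floor removes differences among them, and control lung 4 was low in each, as for Cd79a.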

How the data were processed

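The authors hybridized RNA of 14 samples to Affymetrix Murine Genome U74v2 arrays, 1 array per animal, and deposited MAS 5 signals, a linear intensity scaled with the Affymetrix software to a target of 250 per array. No genome build is given in the sources used here. The table holds 12488 probe sets, less 66 array controls. In the platform annotation 10833 of the others had 1 symbol, 396 several and 1193 none. Values below 1e-06, all on middle tumor 3 (3125 of 12488), were treated as missing.

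Signals were floored at 70 and log2-transformed. Probe sets at 70 or more on at least 3 arrays were kept, with the highest mean per symbol, and 6914 were fitted in limma 3.58.1 under R 4.3.3, letting the variance follow the mean signal, with Benjamini-Hochberg adjustment. All tumors are the mean of the 3 sizes. Second probe sets of a gene were read from a fit over 8127 probe sets. The script was tested on simulated data. The number of arrays limits the precision.

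The members and gene lists were chosen with earlier results of these data known. All members are named. Of each list, the called genes with the largest change and any called against the majority are named by rule. Cd22, Pax5, Cd83, H2-Ob, Pou2af1, Blnk, Btk, Xbp1, Cd3e, Cd4, Lat, Gzmb, Syk, Plcg1, Pecam1 and the further Ighm probe sets were picked after their values were seen. For members spanning at least 2 log2 units, the 3 nearest genes by root mean square difference are named. Each choice was changed in turn: the floor (none, or 35), the scaling (quantiles, or equal medians), the filter (none, or 7 arrays), the probe sets (all), the variance model (robust with no trend, or weights per array), the model (only groups compared, or the replicate block), the test (the methods' unpaired test), the values of 0 (kept) and the arrays (each left out). A fit with neither floor nor filter was added after seeing the data.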

Additional observations from a re-analysis of the deposited data

Results flagged for a closer look

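Of 13 groups of 4 arrays examined over the members, 2 held an array whose gap to the rest passed Dixon's critical value, where chance gives about 1 in 20. Cd3g was at 1.56 in middle tumor 3, the lowest of 4, with the nearest at 15.5. This is the array with 25.02% of its values at 0, and all 4 signals are below the limit for expression. Gzma was at 189.5 in control lung 3, the highest of 4, with the nearest at 115.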

How the results depend on the processing

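Over 28 alternatives and 27 results, 672 outcomes kept their direction and their side of the threshold, 54 lost a call, 9 gained one, 6 counts moved by over 1.5 times and 1 sign turned. With the filter on 7 arrays, 2 members were called in all tumors and 1 in middle tumors. Under the methods' unpaired test with adjustment, 1 member was called in small pools and 1 in middle tumors, and Jchain lost its call in all tumors (adjusted p = 0.0726). With array weights, 5 members were called in large tumors. Leaving out single arrays gave 3 to 5 members called in all tumors, 2 to 3 in small pools, 2 to 3 in middle tumors and 3 to 5 in large tumors, the 5 without control lung 4. Without middle tumor 2, Cd79b in middle tumors turned to 0.00131 on the log2 scale (adjusted p = 1), and single arrays left out gave -0.46 to 0.00131 there. Cd79a was called in all of its alternatives. Calls of Thy1 in middle tumors were lost in 19 of 27 alternatives.

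With the replicate block, 4 members were called in all tumors, 3 in small pools, 3 in middle tumors and 4 in large tumors, where Thy1 was added (adjusted p = 0.0387). Deviations of arrays with the same number had a median correlation of -0.05 (19 pairs, 1 above 0.1), so the numbers do not pair the samples. Scaling each array to 1 median moved the median log2 fold change of all probe sets from 0.04 to 0.13 in all tumors and from 0.02 to 0.13 in middle tumors, and the middle tumor calls to 1331 higher and 920 lower, against 1089 and 1135. No scaling turned the direction of a called member. Signals near or below 70 limit what can be said of Cd2, Cd3g, Thy1 and Gzma.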
